A study of Mus musculus with 4 samples.

Results

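The genes described here are 10 genes of antigen presentation by MHC class I molecules: the transcriptional activator Nlrc5, the light chain B2m, the peptide transporter subunits Tap1 and Tap2, the loading factor Tapbp, the immunoproteasome subunits Psmb8, Psmb9 and Psmb10, and the proteasome activator subunits Psme1 and Psme2. They were named as a list and taken from a table of 24148 genes, of which 9548 had a mean count of at least 10 and were tested. The RNA came from cultured primary microglia of the mouse, macrophages that live in brain tissue. In 2 libraries the cells had been given lipopolysaccharide (LPS), an outer membrane component of Gram-negative bacteria that Tlr4 detects, at a dose of 10 ng/ml during 4 h, and 2 further libraries were of control cells. Microglia of both groups were detached from mixed glial cultures by shaking and replated; no sort is described, and neither strain nor age is given. Separate cultures or animals are not stated for the libraries of a group, and p-values therefore cover no more than the spread among these 4 libraries, which may be technical.

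Class I molecules display peptides from proteins made inside the cell to CD8 T cells. Proteasomes cut the proteins. Under interferon, catalytic subunits of the constitutive proteasome are replaced by the immunosubunits Psmb8, Psmb9 and Psmb10, and the PA28 activator made of Psme1 and Psme2 can cap the particle. The Tap1-Tap2 transporter carries peptides into the endoplasmic reticulum, where Tapbp (tapasin) helps to load them onto a heavy chain paired with B2m. Nlrc5 acts on a promoter module shared by class I genes. In the healthy brain, class I expression is low and microglia are among the cells that can raise it.

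Libraries held 5095630 and 4592474 counts in LPS replicates 1 and 2, and 3617176 and 4080568 counts in control replicates 1 and 2. Of 8 tested microglia markers 0 were called changed by edgeR, and the summed level of the 10 markers in the table was 1662 and 1308 CPM (counts per 1000000 counts of a library's total, adjusted with edgeR's TMM factors) in LPS and 2606 and 1837 CPM in control. The markers Itgam and Trem2 were at or near 0 in all 4 libraries. Each has 2 RefSeq accessions. Low counts were common among genes with more than 1 accession, as given below, so these low values do not show silent genes. Marker RNA of other glia was present, at summed levels that followed the replicate number. The 8 astrocyte markers summed to 96.5 and 447 CPM in LPS and to 83.1 and 318 CPM in control. For 8 oligodendrocyte lineage markers the sums were 387 and 57.1 CPM in LPS and 379 and 65.4 CPM in control. The microglia sums above were also higher in the library numbered 1 of each group. Markers of monocytes and dendritic cells, 5 in all, summed to 28.4 and 22.5 CPM in LPS and to 14.7 and 13.3 CPM in control. Only 1 of the 5, Xcr1, had enough counts to be tested, and edgeR did not call it. The part of such cells in the results below was not tested. Of these 5, Xcr1 alone made up the higher sum in LPS, with 26.3 and 18.2 CPM in LPS against 9.20 and 6.92 CPM in control (log2 1.47, edgeR adjusted p = 0.059). Ccr2 and Flt3 were lower in both LPS libraries, on 0 to 6 counts in LPS and 7 to 11 in control, and Ly6c2 and Zbtb46 overlapped between the groups. In such bulk samples, a difference in cell numbers and a difference in RNA per cell cannot be told apart.

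All 10 genes were in the table, and 7 of them reached the mean count of 10 needed for testing. The 7 were Nlrc5, B2m, Tap2, Psmb8, Psmb9, Psmb10 and Psme1, each with 1 RefSeq accession. The 3 others, Tap1, Tapbp and Psme2, have 2 accessions each and were nearly without counts. Tap1 had 1 and 0 counts in LPS and 0 and 0 in control. Tapbp had 0 in each library. Psme2, summed over both accessions, had 1 and 5 counts in LPS and 0 and 1 in control. Their change was not measurable in this table. Low counts were common among genes with more than 1 accession, of which 4241 of 4801 (88.3%) had a mean count under 10, against 10160 of 19106 (53.2%) of the genes with 1 accession. Canx, a chaperone that every cell uses and that has 3 accessions, was also listed at 0 in all 4 libraries, so a 0 here does not show that a gene was silent.

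All 7 tested genes (those with a mean count of at least 10) were higher in LPS at an edgeR adjusted p under 0.05, where 6.55% of all tested genes were called higher and 1.79% lower. As a description, their median log2 fold change was 2.85, against -0.05 over all tested genes. In numbers, 625 of all genes were called higher and 171 lower, a split that was 471 and 483 with total-count scaling and 524 and 322 after quantile normalization. For each of the 7, both LPS libraries lay above both control libraries, which held for 24.7% of all tested genes.

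**Figure D1:**
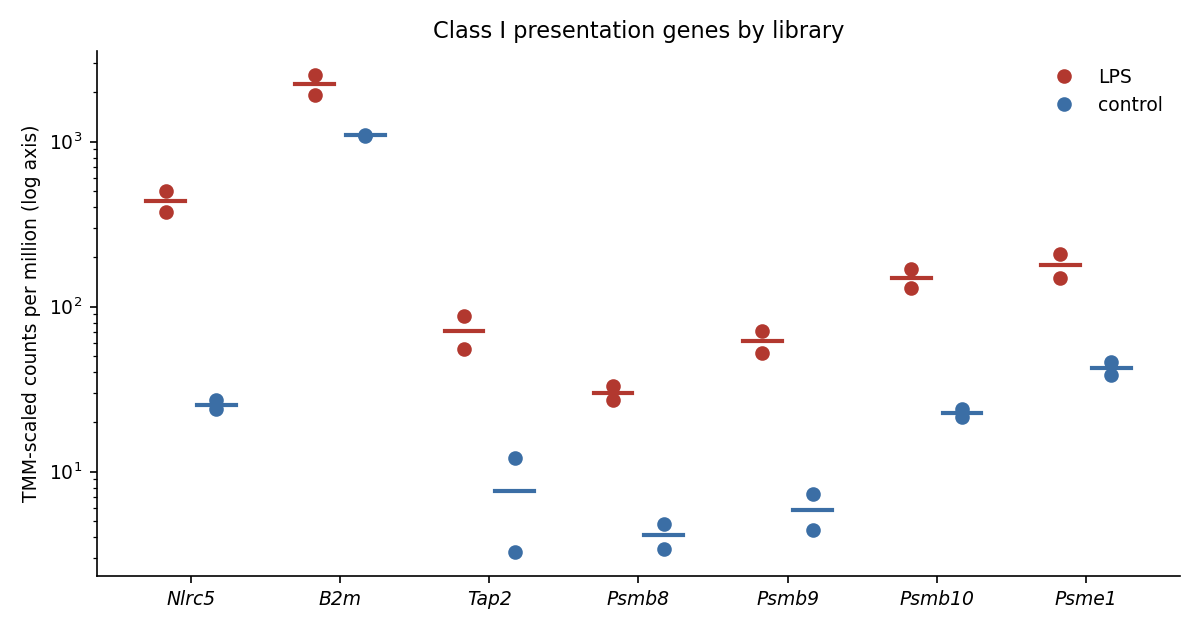
TMM-scaled CPM (log axis) of the 7 tested class I presentation genes in the 2 LPS libraries (red, left) and the 2 control libraries (blue, right); points are libraries and bars are group means. The LPS points lie above the control points for each gene, with the smallest gap for B2m and the widest for Nlrc5.

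Upstream sequences are shown for a pair of genes on the list that start next to each other and for class I structural genes that carry the same motif letters. Psmb9 and Tap1 lie head to head on chromosome 17, and 225 bases lie between their annotated starts. The next sequences are the 250 bases before annotated starts of B2m and of the classical heavy chain genes H2-K1 and H2-D1. H2-K1 has 2 such windows with the same numbers of matches, and 1 is shown. That window lies within the annotated span of H2-K1, 33996012 to 34000619. RefSeq sequences of GRCm38.p6 are printed 5′ to 3′, and capitals mark matches on either strand to any of 4 motifs, which were chosen with these sequences in view. The motifs were the core of the interferon-stimulated response element (GAAA, any 2 bases, GAAA), the core of the Stat element (TTC, any 3 bases, GAA), the core of an NF-kB element (GGGA, any 4 bases, CC) and TGACG, the core of the X2 box of the class I promoter module. Matches to different motifs did not overlap in these 4 sequences.
Psmb9 to Tap1 interval, chr17:34187331-34187555, read on the Tap1 strand: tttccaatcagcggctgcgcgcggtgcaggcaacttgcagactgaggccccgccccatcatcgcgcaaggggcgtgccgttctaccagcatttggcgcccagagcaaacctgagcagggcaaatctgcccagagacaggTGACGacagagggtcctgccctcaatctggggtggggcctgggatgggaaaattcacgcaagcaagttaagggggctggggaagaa
B2m, chr2:122147437-122147686, plus strand: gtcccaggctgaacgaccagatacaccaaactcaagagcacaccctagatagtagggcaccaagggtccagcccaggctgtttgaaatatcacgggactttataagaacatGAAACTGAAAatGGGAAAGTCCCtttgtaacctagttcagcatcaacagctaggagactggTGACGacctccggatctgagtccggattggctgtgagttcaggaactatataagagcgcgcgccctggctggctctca
H2-K1, chr17:34000348-34000597, minus strand: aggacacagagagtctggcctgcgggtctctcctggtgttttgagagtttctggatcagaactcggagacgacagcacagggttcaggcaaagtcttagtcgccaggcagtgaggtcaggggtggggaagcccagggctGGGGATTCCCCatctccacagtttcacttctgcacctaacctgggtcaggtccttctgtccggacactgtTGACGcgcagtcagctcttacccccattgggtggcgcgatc
H2-D1, chr17:35262844-35263093, plus strand: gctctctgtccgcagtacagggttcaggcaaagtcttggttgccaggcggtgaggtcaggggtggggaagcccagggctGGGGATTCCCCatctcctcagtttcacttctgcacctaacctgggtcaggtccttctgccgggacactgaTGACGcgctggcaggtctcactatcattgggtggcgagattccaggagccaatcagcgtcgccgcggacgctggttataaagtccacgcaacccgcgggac

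The B2m window held 1 interferon response match, 2 overlapping NF-kB matches and 1 match to TGACG. The H2-K1 and H2-D1 windows each had the run GGGGATTCCCC, with 2 overlapping NF-kB matches, followed by a TGACG. In the interval shared by Psmb9 and Tap1 only TGACG was matched, 1 time. Upstream windows were found for 8 of the 10 genes; Nlrc5 and Tap2 had none in the table. Over these 8 genes, TGACG was matched in 4 (B2m, Tap1, Psmb9 and Psme2, of which Tap1 and Psmb9 share 1 match), the interferon response core in 1 (B2m), the NF-kB core in 1 (B2m) and the Stat core in 1 (Psmb8). Of 32851 upstream windows in the whole RefSeq table, 17.8% held TGACG, 2.98% the interferon response core, 17.6% the NF-kB core and 7.02% the Stat core. The constitutive counterparts Psmb5 and Psmb6 and the activator Psme3 also held TGACG. A match describes letters in a window and does not show a bound site. Only the stated letters were searched, so a window without a match may still hold a variant of the element. This holds for the interferon response core in H2-K1 and H2-D1, which was not matched there.

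Nlrc5 (chromosome 8, 94434335 to 94527272, GRCm38), the activator of class I transcription, changed most among the 7. It had 501 and 377 CPM in LPS replicates 1 and 2, against 27.1 and 23.8 CPM in control replicates 1 and 2. Both controls were low and close together, and the lower LPS library was still far above them. The fold change was 17.2 (log2 4.11 ± 0.25 SE, edgeR adjusted p = 8.7e-04), and Nlrc5 ranked 135 of 9548 by log2 fold change. Within the libraries numbered 1 the log2 ratio was 4.21, and within those numbered 2 it was 3.98. A long non-coding RNA gene that overlaps it on the other strand, 9330175E14Rik, had 120 and 80 counts in LPS and 3 and 19 in control, far fewer than the 2098 and 1571 counts in LPS and 103 and 124 in control of Nlrc5 itself; without a stated strand setting, reads of the 2 genes cannot be told apart.

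The immunosubunits all rose. Psmb9 (chromosome 17, 34182030 to 34187330), which replaces Psmb6, had 71.4 and 52.3 CPM in LPS, against 7.36 and 4.42 CPM in control. It was 10.6-fold higher (log2 3.40 ± 0.36, edgeR adjusted p = 0.0048). The groups were well apart, with all 4 libraries at moderate counts of 299 and 218 in LPS and 28 and 23 in control. Psmb8 (chromosome 17, 34198195 to 34201454), which replaces Psmb5, had 27.2 and 32.9 CPM in LPS, against 3.42 and 4.81 CPM in control. It was the 1 tested gene of the list with a higher value in LPS replicate 2 than in LPS replicate 1, and the groups did not overlap (7.19-fold higher, log2 2.85 ± 0.32, edgeR adjusted p = 0.0060). Psmb10 (chromosome 8, 105935728 to 105938392), which replaces Psmb7, had 169 and 130 CPM in LPS, against 23.9 and 21.5 CPM in control. It was 6.59-fold higher (log2 2.72 ± 0.24, edgeR adjusted p = 0.0027), with controls that differed by little. Within the libraries numbered 1 and 2 the log2 ratios were 3.28 and 3.56 for Psmb9, 2.99 and 2.77 for Psmb8, and 2.82 and 2.60 for Psmb10.

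Psme1 (chromosome 14, 55578494 to 55581527), the alpha subunit of the PA28 activator, had 209 and 149 CPM in LPS, against 46.0 and 38.7 CPM in control. It was 4.24-fold higher (log2 2.08 ± 0.26, edgeR adjusted p = 0.0085) without overlap of the groups, with log2 ratios within the numbers 1 and 2 of 2.18 and 1.95. Its partner Psme2, the beta subunit, lies near it on chromosome 14 (55587440 to 55591101) and had 6 counts over both LPS libraries and 1 over both controls. The ratio from these counts was 6.46, with a 95% interval of 0.784 to 297 (Clopper-Pearson, counting error only), so these counts do not resolve a change of Psme2.

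Tap2 (chromosome 17, 34204479 to 34216321), a subunit of the peptide transporter, had 88.1 and 55.2 CPM in LPS, against 12.1 and 3.27 CPM in control. It was 9.55-fold higher (log2 3.26 ± 0.62, edgeR adjusted p = 0.034), and its standard error was the largest of the 7. The controls differed most from each other here, with 46 and 17 counts, and the log2 ratios within the numbers 1 and 2 were 2.87 and 4.08. Without control replicate 1 its log2 fold change was 4.43, and without control replicate 2 it was 2.53. Tap2 missed the threshold without LPS replicate 1 (log2 2.88, edgeR adjusted p = 0.11) and without LPS replicate 2 (3.56, edgeR adjusted p = 0.055, range 1.5e-06 to 0.11 over 13 alternatives, which leave aside a fit with the replicate number as a block).

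B2m (chromosome 2, 122147687 to 122153082), the light chain shared by class I molecules, was the most abundant of the genes and had the smallest change. It had 2544 and 1916 CPM in LPS, against 1082 and 1095 CPM in control. The controls were nearly equal and both LPS libraries stood above them, 2.05-fold higher on average (log2 1.03 ± 0.21, edgeR adjusted p = 0.044). The log2 ratios of B2m within the numbers 1 and 2 were 1.23 and 0.81. The call was lost without any 1 of the 4 libraries: without LPS replicate 1 (log2 0.82, edgeR adjusted p = 0.31), LPS replicate 2 (1.23, adjusted p = 0.11), control replicate 1 (1.02, adjusted p = 0.060) or control replicate 2 (1.01, adjusted p = 0.073). It was also lost with total-count scaling (0.60, adjusted p = 0.15), and after quantile normalization the direction turned (-0.19, limma adjusted p = 0.43). Over 13 alternatives the adjusted p of B2m ran from 0.0028 to 0.43.

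**Figure D2:**
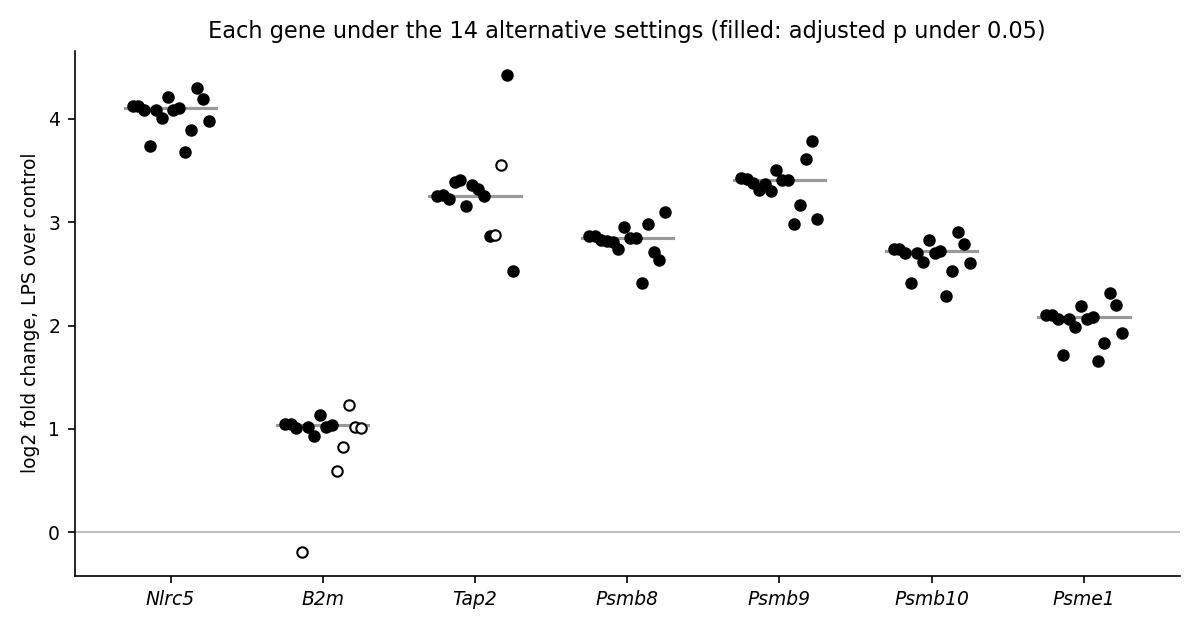
Log2 fold change of LPS over control for the 7 tested genes under the 14 alternative settings (points; filled where the adjusted p is under 0.05) and in the main edgeR fit (grey line). Nlrc5, Psmb8, Psmb9, Psmb10 and Psme1 were called under each setting, Tap2 lost its call in 2 of them, and B2m lost it in 6 and turned to -0.19 in 1.

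Per transcript length, B2m had the highest level in both groups, at 2593 ± 516 CPM per kb in LPS and 1266 ± 10.7 CPM per kb in control (SD, n = 2 each). In LPS the next levels were 161 ± 38.0 CPM per kb for Psme1, 114 ± 20.9 for Psmb10, 63.2 ± 12.6 for Nlrc5, 45.7 ± 9.99 for Psmb9, 20.8 ± 6.77 for Tap2 and 18.5 ± 2.45 for Psmb8. Tap2 and Psmb8 overlapped between their libraries in LPS, and the other neighbours in this order did not. In control, Psme1 had 38.1 ± 4.67 CPM per kb, Psmb10 17.3 ± 1.29, Psmb9 4.36 ± 1.54, Nlrc5 3.67 ± 0.329, Psmb8 2.53 ± 0.604 and Tap2 2.23 ± 1.81. The control libraries of Psmb9 and Nlrc5 overlapped, as did those of Psmb8 and Tap2. Nlrc5 lay above Psmb9 in LPS and overlapped it in control.

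The constitutive counterparts had smaller log2 fold changes than the immunosubunits. Psmb5 had 61.4 and 56.8 CPM in LPS, against 44.2 and 32.5 CPM in control (log2 0.63 ± 0.24, edgeR adjusted p = 0.22), and Psmb7 had 185 and 172 CPM in LPS, against 123 and 115 CPM in control (0.58 ± 0.19, adjusted p = 0.15). Psmb6 rose, with 279 and 237 CPM in LPS, against 107 and 122 CPM in control (1.17 ± 0.20, edgeR adjusted p = 0.024). To set each immunosubunit against its counterpart, the 2 counts of the same library were divided, so that library scaling cancels. For each 100 counts of Psmb5, Psmb8 had 44.4 and 57.8 in LPS, against 7.74 and 14.8 in control. For each 100 counts of Psmb6, Psmb9 had 25.6 and 22.1 in LPS, against 6.86 and 3.64 in control. For each 100 counts of Psmb7, Psmb10 had 91.7 and 76.1 in LPS, against 19.4 and 18.7 in control.

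The mean log2 ratio was higher in LPS than in control by 2.24 for Psmb8 to Psmb5, by 2.25 for Psmb9 to Psmb6 and by 2.13 for Psmb10 to Psmb7, and no LPS library overlapped a control library. Differences between the 3 ratios were not tested. With 1 library left out at a time, the difference ran from 1.78 (without control replicate 1) to 2.71 (without control replicate 2) for Psmb8 to Psmb5, from 1.79 (without control replicate 2) to 2.71 (without control replicate 1) for Psmb9 to Psmb6, and from 2.00 to 2.27 for Psmb10 to Psmb7. An exact two-sided permutation test gave p = 0.333 for each, the smallest that 2 libraries against 2 allow. Psme1 was also set against Psme3, the subunit of another proteasome activator, a pair added after its values were seen: for each 100 counts of Psme3, Psme1 had 196 and 180 in LPS, against 51.0 and 67.9 in control. Psme3 itself had 107 and 83.2 CPM in LPS, against 90.2 and 56.9 CPM in control, and the groups overlapped (log2 0.37 ± 0.30, edgeR adjusted p = 0.57, and log2 -0.03 to 0.73 over 13 alternatives).

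**Figure D3:**
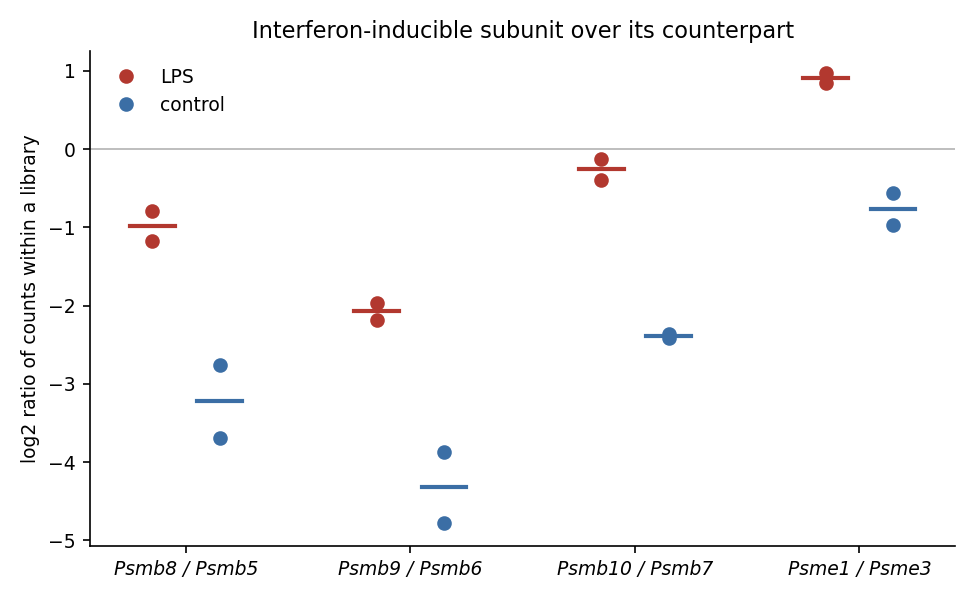
Log2 ratio of counts within a library for each immunosubunit over its constitutive counterpart and for Psme1 over Psme3, in the 2 LPS libraries (red, left) and the 2 control libraries (blue, right), with bars at the group means. Each ratio is higher in both LPS libraries, by 2.24, 2.25, 2.13 and 1.67 on average.

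Of the 22 genes of the constitutive proteasome list, with activators, assembly factors and the counterparts included, 20 were tested. On this list only Psmb5, Psmb6 and Psmb7 are replaced by the immunosubunits. A rise of another core subunit is therefore not specific to the constitutive proteasome. Among all tested genes, edgeR called 6.55% higher and 1.79% lower. Of the 20, 4 rose, 0 fell and 16 did not pass the test, with a median log2 fold change of 0.55. The 4 were the alpha ring subunits Psma6 (1.37 ± 0.19, edgeR adjusted p = 0.011), Psma5 (1.21 ± 0.20, adjusted p = 0.020) and Psma2 (0.87 ± 0.18, adjusted p = 0.046), and Psmb6. Of these 4 calls 0 were kept without LPS replicate 1, without LPS replicate 2, with total-count scaling or after quantile normalization. Psma6, for example, had 1.38 (edgeR adjusted p = 0.075) without LPS replicate 1, 1.37 (0.078) without LPS replicate 2, 0.93 (0.063) with total-count scaling and 0.80 (limma adjusted p = 0.089) after quantile normalization. Psmb6 had 1.06 (0.18) and 1.29 (0.094) without LPS replicates 1 and 2, and Psma5 1.09 (0.16) and 1.33 (0.083). Psma2 had 0.84 (0.29) and 0.91 (0.23) without them, and lost its call without control replicate 1 (0.82, 0.13) or control replicate 2 (0.87, 0.11) as well. Over 13 alternatives the adjusted p ran from 4.6e-05 to 0.089 for Psma6, from 0.0011 to 0.16 for Psma5, from 0.0017 to 0.18 for Psmb6 and from 0.021 to 0.40 for Psma2.

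Among class I heavy chain genes, 11 of 19 listed genes were tested. Of the 11, 4 rose, 1 fell and 6 did not pass the test, with a median log2 fold change of 1.31. Over all tested genes, edgeR called 6.55% higher and 1.79% lower. H2-M2, a non-classical class I gene, had 377 and 136 CPM in LPS, against 3.42 and 3.08 CPM in control (log2 6.30 ± 0.62, edgeR adjusted p = 0.0041), and 5.39 without LPS replicate 1. H2-T24, another non-classical gene, had 155 and 141 CPM in LPS, against 13.1 and 19.2 CPM in control (3.19 ± 0.27, adjusted p = 0.0025). H2-T23, which encodes Qa-1, a ligand of inhibitory receptors on natural killer cells, had 244 and 225 CPM in LPS, against 38.4 and 46.7 CPM in control (2.46 ± 0.22, edgeR adjusted p = 0.0026). H2-Q4 had a log2 fold change of 1.31 ± 0.21 (edgeR adjusted p = 0.018), and its call was absent without LPS replicate 1 (1.18, 0.13), LPS replicate 2 (1.45, 0.068), with total-count scaling (0.87, 0.079) and after quantile normalization (0.77, 0.086), with adjusted p from 0.00032 to 0.13 over 13 alternatives.

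The classical heavy chains did not pass the test. H2-K1 had 767 and 481 CPM in LPS, against 271 and 134 CPM in control, without overlap (log2 1.62 ± 0.41, edgeR adjusted p = 0.081). H2-D1 had 401 and 246 CPM in LPS, against 198 and 108 CPM in control, also without overlap (1.08 ± 0.38, adjusted p = 0.18). Both were called higher without control replicate 1 (2.21, edgeR adjusted p = 0.0015, for H2-K1 and 1.56, adjusted p = 0.014, for H2-D1) and with no filter on low counts (adjusted p = 0.0036 and 0.042), and H2-K1 also by DESeq2 (1.64, adjusted p = 0.0034). Over the 13 alternatives other than the replicate block the adjusted p ran from 0.0015 to 0.32 for H2-K1 and from 0.014 to 0.58 for H2-D1. Mr1, which presents metabolites of bacterial vitamin synthesis, had 8.83 and 12.7 CPM in LPS, against 28.1 and 32.3 CPM in control, and fell by 1.49 on the log2 scale (edgeR adjusted p = 0.039). Mr1 missed the threshold without LPS replicate 1 (-1.24, adjusted p = 0.26), LPS replicate 2 (-1.77, adjusted p = 0.10) or control replicate 2 (-1.41, adjusted p = 0.089), with a range of 0.013 to 0.26. Many genes of the H2-K, H2-D, H2-Q and H2-T groups are close copies of each other, so reads may have been split or lost between them and their single levels are uncertain. H2-Q6 and H2-T22, with 1 accession each, and H2-Q7 and H2-T10, with 3 and 2 accessions, were listed at 0 in all libraries.

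In the endoplasmic reticulum, 8 of 12 listed genes for peptide loading and trimming were tested, and 1 rose, 0 fell and 7 did not pass the test (median 0.12). Tapbpl, a peptide editor related to tapasin, had 53.7 and 33.6 CPM in LPS, against 11.3 and 10.8 CPM in control (log2 1.98 ± 0.32, edgeR adjusted p = 0.019; 1.61, adjusted p = 0.11, without LPS replicate 1, range 0.00015 to 0.11). The chaperones Calr (-0.09 ± 0.21, adjusted p = 0.88) and Pdia3 (-0.18 ± 0.19, adjusted p = 0.68), partners of tapasin in the loading complex, were not called, and the trimming peptidase Erap1 had 0.81 ± 0.21 (edgeR adjusted p = 0.087). Of 7 cytosolic peptidases 1 rose and 6 did not pass the test (median 0.25). In both lists the 1 called gene stands beside the 6.55% of all tested genes that edgeR called higher, and the counts show nothing particular to either list. The called peptidase was the leucine aminopeptidase Lap3 (1.14 ± 0.22, edgeR adjusted p = 0.035), a call lost without LPS replicate 1 (0.96, 0.24), LPS replicate 2 (1.32, 0.092) or control replicate 2 (1.05, 0.086), with total-count scaling (0.71, 0.11) and after quantile normalization (0.74, 0.080), with a range of 0.0056 to 0.24 over 13 alternatives.

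**Figure D4:**
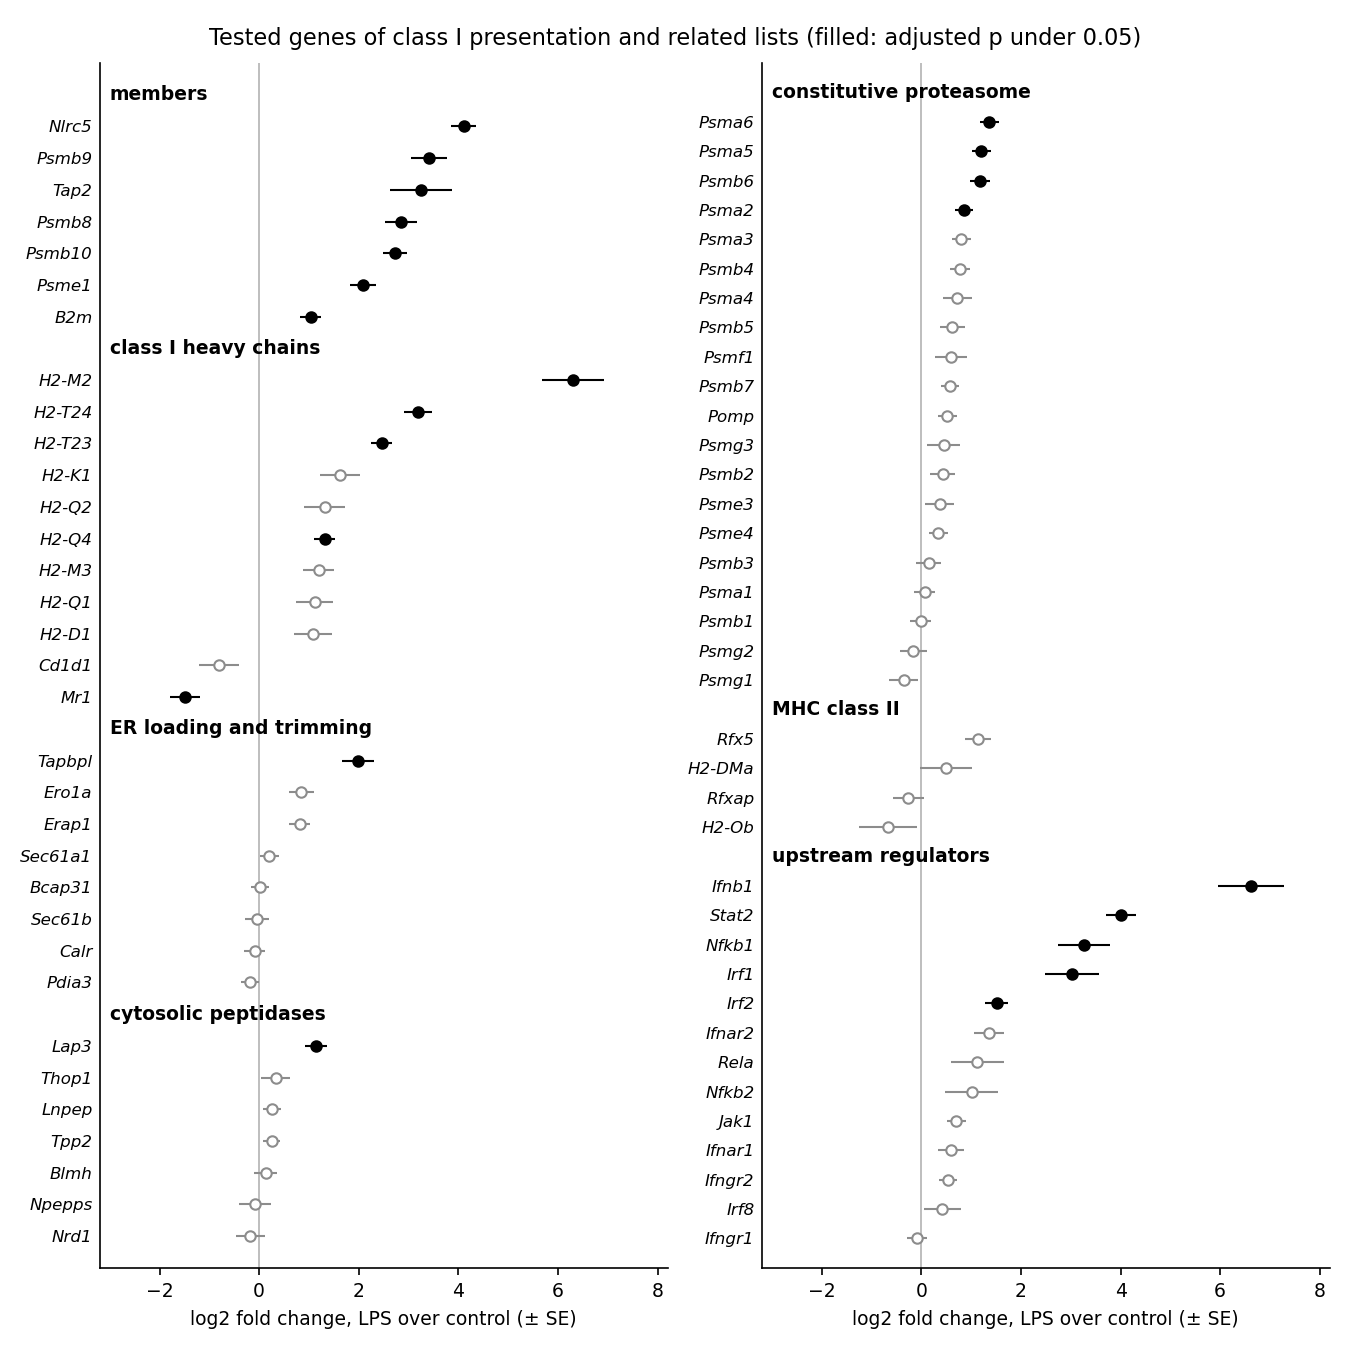
Log2 fold change of LPS over control with its standard error for each tested gene of the class I presentation genes (members) and of 6 related lists, ordered by value within a list; filled points have an edgeR adjusted p under 0.05. All 7 class I presentation genes are filled, and the fitted value of Ifnb1 rests on 1 control count.

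MHC class II molecules present peptides from outside the cell. Of 12 listed genes, 4 were tested (H2-DMa, H2-Ob, Rfx5 and Rfxap) and edgeR called 0 (1 at an unadjusted p under 0.05). H2-Aa, H2-Ab1, H2-Eb1, Cd74 and Ciita did not reach the mean count for testing, so these calls say nothing of them. DESeq2 called 1 and limma-trend 0. For all tested genes, the shares that edgeR called were 6.55% higher and 1.79% lower. Rfx5, a factor that binds class I and class II promoters alike, had 40.8 and 37.7 CPM in LPS, against 15.0 and 20.6 CPM in control (log2 1.14 ± 0.26, edgeR adjusted p = 0.064), and was called by DESeq2. H2-Aa had 2 and 3 counts in LPS and 4 and 5 in control, and H2-Ab1 had 0 and 1 in LPS and 2 and 1 in control, both too few to test.

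Of the listed regulators upstream of class I genes, 13 of 19 were tested and 5 rose, with a median log2 fold change of 1.13. The share called higher over all tested genes was 6.55%. Of the 5, Ifnb1 and Irf1 reached the mean count for testing only through their LPS libraries. Their control counts were 0 and 1 for Ifnb1 and 3 and 2 for Irf1. Genes with so few control counts could be tested only if they were high in LPS. The count of 5 and the median therefore lean towards higher values, and the same filter acted on all tested genes. Stat2, a subunit of the factor activated by type I interferon, had 388 and 315 CPM in LPS, against 17.1 and 26.2 CPM in control (4.01 ± 0.30, edgeR adjusted p = 0.0016). Ifnb1, which encodes interferon beta, had 57 and 57 counts in LPS and 0 and 1 in control. Its ratio from counts was 123 with a 95% interval of 21.6 to 4893 (edgeR adjusted p = 0.0043), 70.9 without control replicate 1 (12.5 to 2826) and at least 17.3 without control replicate 2, with the remaining control's 0 set to 3 counts. Nfkb1, an NF-kB subunit, had 458 and 233 CPM in LPS, against 49.9 and 22.3 CPM in control (3.26 ± 0.52, edgeR adjusted p = 0.019; 3.94 without control replicate 1).

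Irf2, an interferon regulatory factor, was higher by 1.51 ± 0.24 on the log2 scale (edgeR adjusted p = 0.018) and missed the threshold without LPS replicate 1 (1.28, 0.11; range 0.00012 to 0.11). Irf1, an activator of immunosubunit genes with 3 accessions, rose on few counts, 21 and 19 in LPS and 3 and 2 in control (3.03 ± 0.55, edgeR adjusted p = 0.028), and lost its call without control replicate 2 (2.52, 0.11) and after quantile normalization (2.53, 0.052), with a range of 0.0061 to 0.11 over the alternatives that gave it a value. Of the receptor chains Ifnar1, Ifnar2, Ifngr1 and Ifngr2, edgeR called 0 (2, Ifnar2 and Ifngr2, at an unadjusted p under 0.05). Ifnar2 had a log2 fold change of 1.37 ± 0.30 (edgeR adjusted p = 0.054) and was called by DESeq2 (adjusted p = 0.017) and without a filter on low counts (edgeR adjusted p = 0.013).

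Tap1, Tap2, Psmb8 and Psmb9 lie together in the MHC on chromosome 17, with Tap1 the 1 gene of these without usable counts. Psmb9 runs away from Tap1 on the opposite strand, and Psmb8 starts 10.6 kb and Tap2 16.9 kb after the start of Tap1. On either side, the class II genes H2-DMb1 and H2-Ob had few counts: H2-DMb1 had 8 and 7 in LPS and 7 and 10 in control, and H2-Ob 11 and 5 in LPS and 15 and 12 in control. Tap1, between 3 genes that rose, had 1 count over all libraries.

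**Figure D5:**
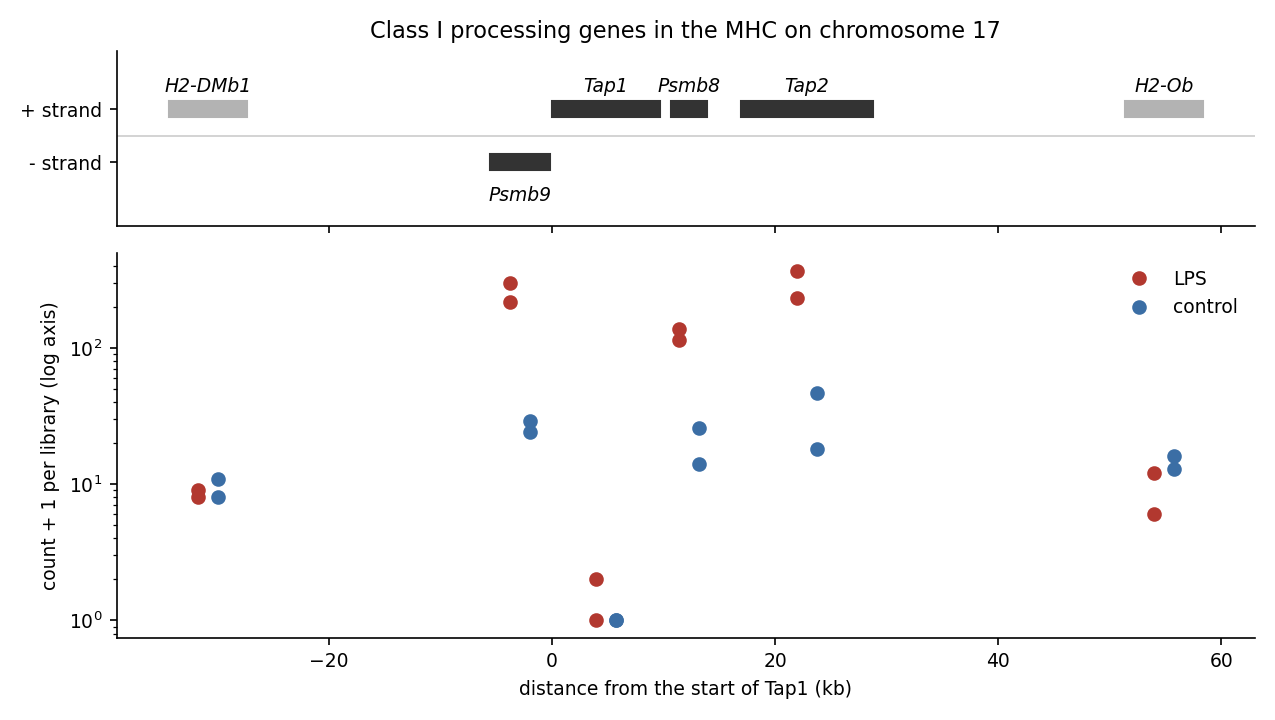
Genes around Tap1 on chromosome 17 by strand (top; class I presentation genes dark, class II genes grey) and their counts plus 1 per library on a log axis (bottom; LPS red, left, and control blue, right), against the distance in kb from the start of Tap1. Psmb9, Psmb8 and Tap2 are higher in both LPS libraries, while Tap1 has 1 count in all.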

How the data were processed

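The authors deposited a single table with counts of 32915 RefSeq accessions in each of the 4 libraries. Its name says normalized, but the values are whole numbers with differing totals and were treated as counts. Per the submitters' processing notes, the tools included HTSeq 0.6.1, TopHat2 2.0.10, Cufflinks 2.2.1, CASAVA 1.8.2 and Trimmomatic 0.33, with the build mm10; each tool's role, the counting mode, the annotation and the strand setting stay unstated, so reads of overlapping or near-identical genes may have been shared or lost. Libraries were directional and depleted of ribosomal RNA, per the labels' protocols.

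Accessions were matched to symbols with a RefSeq table of GRCm38.p6 (32483) and GENCODE metadata (191); 241 stayed unnamed, held 20.1% to 24.9% of a library's counts and were kept under their own IDs. Counts were summed per gene. The test, two-sided, was the quasi-likelihood test of edgeR 4.0.16 in R 4.3.3 on genes whose mean count reached 10, with TMM scaling, all 4 libraries in 1 fit without covariates, and Benjamini-Hochberg adjustment over all genes tested at 0.05; a standard error is the log2 fold change divided by the square root of F. The test was also run on counts simulated with independent libraries. That checks the code and not the test's fit to these data, where same-numbered libraries deviated together. CPM are counts per 1000000 of the TMM-scaled library size; CPM per kb divide by the length of the GENCODE transcript paired with the accession. Intervals and limits from counts cover counting error only, and a count of 0 was set to 3 counts. Alternatives used DESeq2 1.42.0, limma 3.58.1 (prior count 1), other scalings, filters (none, or a mean of at least 50), the top accession per gene, leaving out the unnamed accessions and Lars2, a replicate block, and each library left out. Besides the 10 genes, the text names the called genes of each list, up to 5, and the counterparts Psmb5, Psmb6, Psmb7 and Psme3; the other genes, among them H2-K1, H2-D1, Calr, Pdia3, Erap1 and Rfx5, were named after their values were seen. The genes and lists were chosen with earlier results of these data known.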

Additional observations from a re-analysis of the deposited data

How the results depend on the processing

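Nlrc5, Psmb8, Psmb9, Psmb10 and Psme1 kept their direction and their call in each of the 14 alternatives; in the 13 without the block, log2 fold changes were 3.68 to 4.30 for Nlrc5, 2.41 to 3.10 for Psmb8, 2.99 to 3.79 for Psmb9, 2.29 to 2.90 for Psmb10 and 1.65 to 2.31 for Psme1. B2m turned to -0.19 after quantile normalization. With 1 library left out, the class I presentation genes called higher numbered 5 to 6, all genes called higher 339 to 660 and lower 33 to 241, heavy chains called higher 3 to 7 and lower 0 to 1, loading genes 0 to 1, peptidases 0 to 1, constitutive proteasome genes 0 to 3 and upstream regulators 3 to 7; the cause was not tested. With total-count scaling the median over all genes shifted by -0.43 (log2) relative to TMM, with 483 genes called lower, 0 peptidases and 0 constitutive proteasome genes; relative to that median B2m stood at 1.07 and Nlrc5 at 4.15. Quantile normalization gave 322 genes called lower, 1 loading gene called lower, 0 peptidases and 0 constitutive proteasome genes called higher. Without a filter 7 heavy chains and 1 class II gene were called higher, DESeq2 called 1 class II gene, and a minimum mean of 50 left 3 upstream regulators, where fewer genes were tested.

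Same-numbered libraries deviated together (correlation of deviations across genes 0.644), but with 2 numbers this does not establish pairs. With the number as a replicate block, edgeR called 1677 genes higher and 1258 lower, 7 class I presentation genes, 9 heavy chains, 3 loading genes, 14 constitutive proteasome genes, 1 class II gene and 11 upstream regulators, among them H2-K1 (log2 1.67, adjusted p = 9.3e-10), H2-D1 (1.10, adjusted p = 2.7e-07) and 3 of the 4 interferon receptor chains. The block fit adds a term for the number and leaves less information on each gene's own spread. Its small adjusted p-values therefore lean on spread pooled across genes. The lack of a call at 2 libraries a group does not show that a gene was stable.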
